A study of Capra hircus with 2 samples.

Results

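ENSCHIG00000012599 was 1 of 154 complete gene rows in a droplet single-cell RNA table of granulosa cells from the ovaries of Ji'ning grey goats. It was chosen by its own deposited values per cell, which form a low and a high mode, and the cells of each library were divided at a deposited value of 2.5. The values of this gene are therefore a description and are not tested. The high fertility group comprised goats with more than 3 kids per birth and the low fertility group goats with fewer than 2, with 1 library each. Neither treatment nor age is given in the labels, nor how many goats were pooled. With 1 library per group, differences below compare these libraries and not the conditions, and no p-value is given.

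Granulosa cells line the follicle around the oocyte. They respond to follicle-stimulating hormone, convert androgens to oestradiol and, after the ovulatory surge, luteinise while the matrix around them is remodelled. Cells recovered from follicles can also include blood cells and cells of the theca and stroma. No symbol was paired with ENSCHIG00000012599, so its product is not named and its function is not described. It stands in the table between DZIP3, which encodes an RNA-binding ubiquitin ligase, and NECTIN3, which encodes a cell adhesion molecule. None of 10 granulosa markers (among them FSHR, CYP19A1 and FOXL2) is among the 154 rows, so the labelled cell type could not be checked. No cell state is therefore given a cell type name. The table as received ends within a row. RefSeq holds 110 of its 117 symbols, and all 110 lie on chromosome 1. Shares of all rows given below thus describe these rows and not the whole transcriptome.

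The table held 7106 high fertility and 3345 low fertility cells, 10451 in all, where the study's design text speaks of about 12000; the filter between these numbers was not given. The libraries summed to 63769786 and 45674506 unique molecular identifiers (UMIs, the count of captured transcripts), with medians of 7214.5 and 11080 UMIs per cell. A total of 27 cell barcodes occurred in both libraries. Levels are given as CPM, a gene's UMIs per 1000000 UMIs of the cells. Where a gene had 0 UMIs over a whole library, its level could still be 0.047 CPM (high fertility) or 0.0657 CPM (low fertility), the level of 3 UMIs. All intervals are 95% intervals and cover counting error only.

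Cells on the low side of the split carried few UMIs of the gene. Their median was 1 UMI per cell in both libraries, with quartiles of 0 and 1 in the high fertility and 0 and 3 in the low fertility library. Cells on the high side held a median of 42 UMIs (quartiles 25 and 69) in the high fertility and 61 UMIs (39 and 100) in the low fertility library. The low side stood at 133 CPM (129 to 137) in the high fertility and 181 (174 to 189) in the low fertility library. The high side stood at 5414 CPM (5389 to 5438) and 5648 CPM (5622 to 5673). Thus 97.9% of the gene's UMIs in the high fertility and 98.8% in the low fertility library came from cells at or above 2.5, which were 45.5% and 67.1% of the cells. The gene made up 0.541% and 0.565% of all UMIs of those cells.

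Few cells lay near the bound. In cells of at least 5000 UMIs, the emptiest class of 0.25 between the modes was 2.25 to 2.5 in the high fertility library, with 36 of 5294 cells, and 2.5 to 2.75 in the low fertility library, with 16 of 2781 cells. The upper mode peaked at 3.75 to 4 in both, with 532 and 452 of these cells. Over all depths, 81 cells lay just below the split (2.25 to 2.5) and 83 just above (2.5 to 2.75) in the high fertility library, and 44 and 48 in the low. A value of 2.5 corresponds to 1118 CPM, so in the shallowest cells it rests on very few UMIs of the gene.

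**Figure D1:**
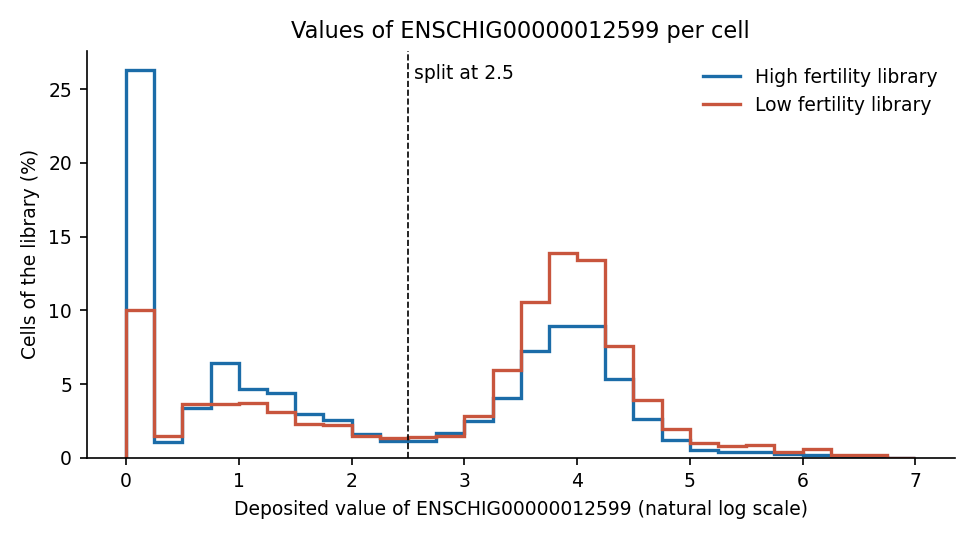
Share of the cells of each library (y axis, percent) by deposited value of ENSCHIG00000012599 (x axis, natural log scale, classes 0.25 wide); the dashed line marks the split at 2.5. Both libraries have a low mode with many cells at 0 and an upper mode that peaks near 4, and the upper mode holds 67.1% of the cells of the low and 45.5% of those of the high fertility library.

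The share of cells on the low side differed with depth. It ran from 64.1% (61.5% to 66.6%) in cells of 2500 to 5000 UMIs to 26.2% (21.0% to 31.9%) in cells of 20000 to 30000 UMIs in the high fertility library. The low fertility library ran from 47.6% (42.4% to 52.8%) at 5000 to 7500 UMIs to 18.7% (13.8% to 24.4%) at 30000 UMIs or more. In 7 of 8 depth bins the high fertility library had the greater share. The exception was the bin of 20000 to 30000 UMIs, with 26.2% against 28.3%, and the largest gap was 20.1 percentage points. Standardised to the depths of all cells, the shares were 51.9% and 37.0%.

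The low side held 1858 cells (48.0%) without a UMI of the gene in the high fertility library and 329 (29.9%) in the low. Its level ran from 250 CPM in the shallowest to 53.8 CPM in the deepest cells of the high fertility library and from 298 to 99.7 CPM in the low. On the high side the level was near 5000 CPM in cells above 7500 UMIs, between 5005 and 5328 CPM in the high fertility and between 5048 and 5754 CPM in the low fertility library. Below 2500 UMIs it reached 15839 and 16442 CPM.

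**Figure D2:**
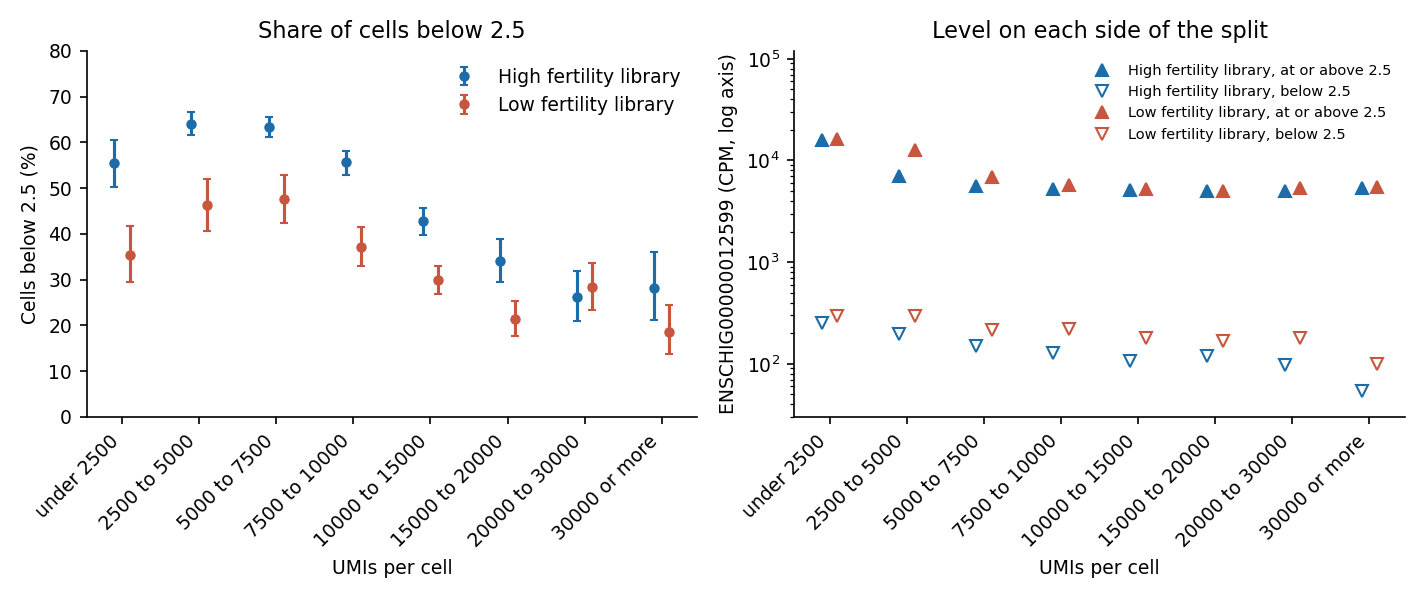
Left, percent of cells below 2.5 in 8 bins of UMIs per cell, with exact binomial 95% intervals; right, level of ENSCHIG00000012599 in CPM (log axis) in cells at or above 2.5 (filled) and below it (open). The share below 2.5 is lower in deep cells, and the high level is near 5000 CPM in cells above 7500 UMIs and reaches 15839 and 16442 CPM below 2500.

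The 153 other rows were compared between the sides within each library. For each row a ratio, cells at or above 2.5 over cells below, was pooled over the 8 depth bins. The CPM printed beside it are not matched for depth. Rows with at least 100 UMIs in each library were compared, 76 in all, of which 64 carry a symbol; 77 rows had fewer. A row was counted when its ratio reached 1.5-fold. In the high fertility library 15 of 76 rows (19.7%) were higher and 6 (7.89%) lower on the high side, and 55 lay between. The low fertility library had 2 rows higher (2.63%) and 6 lower (7.89%), with 68 between. The median ratio over all 76 rows was 1.05 and 0.959. The ratios lay on the same side of 1 in both libraries for 44 rows.

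NXPE3 and NIT2 were the rows 1.5-fold or more higher on the high side of both libraries, 2.63% of the 76. NIT2 encodes omega-amidase, a cytosolic enzyme of glutamine and asparagine breakdown. Its level was 12.4 CPM below and 27.3 CPM at or above the split in the high fertility library, and 15.4 and 23.4 CPM in the low. The matched ratios were 2.21 (1.95 to 2.51) and 1.56 (1.33 to 1.83). NXPE3 encodes a protein of the neurexophilin and PC-esterase domain family. Its level was 6.01 against 10.6 CPM in the high fertility and 3.47 against 8.59 CPM in the low fertility library, with ratios of 1.76 (1.46 to 2.12) and 2.68 (1.93 to 3.72). The same UMIs can be counted by cell, as a description: a UMI can also come from free RNA, whose level was not measured. Of cells with a NIT2 UMI, 69.3% and 80.3% were at or above 2.5, where cells without one at the same depths had 47.8% and 67.1%. For NXPE3 the shares were 66.1% and 85.3%, against 52.2% and 69.5%.

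GRAMD1C, FILIP1L and ENSCHIG00000002425 were 1.5-fold or more lower on the high side of both libraries, 3.95% of the 76. GRAMD1C encodes a sterol transfer protein of the endoplasmic reticulum. It stood at 8.18 CPM below and 4.49 CPM at or above the split in the high fertility library (ratio 0.640, 0.518 to 0.790) and at 7.66 and 4.36 CPM in the low (0.618, 0.474 to 0.805). FILIP1L, whose product interacts with filamin A, stood at 29.1 against 19.3 CPM (0.634, 0.567 to 0.709) and at 15.5 against 5.11 CPM (0.355, 0.289 to 0.436). ENSCHIG00000002425, without a symbol, had ratios of 0.567 (0.463 to 0.694) and 0.475 (0.382 to 0.591). With the split at 2.0 and at 3.0, FILIP1L lay just inside 1.5-fold in the high fertility library, at 0.669 and 0.671. GRAMD1C did so too, at 0.678 and 0.673, so that ENSCHIG00000002425 alone was counted. As a mean over cells GRAMD1C was inside 1.5-fold in both libraries, at 0.691 and 0.675. It was also not counted with at least 300 UMIs in each library. RBM11, a splicing regulator, lay at the bound, with 0.604 (0.491 to 0.742) and 0.669 (0.507 to 0.882).

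The UMIs of FILIP1L were unevenly spread, with up to 20 in a single low-side cell. In cells of at least 5000 UMIs its ratio in the high fertility library was 0.689. Of the 713 cells with a FILIP1L UMI in the high fertility library, 45.6% (41.9% to 49.3%) were at or above 2.5, where 50.6% of cells without one at the same depths were. In the low fertility library it was 55.3% (48.6% to 61.8%) of 228 cells, against 71.2%.

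**Figure D3:**
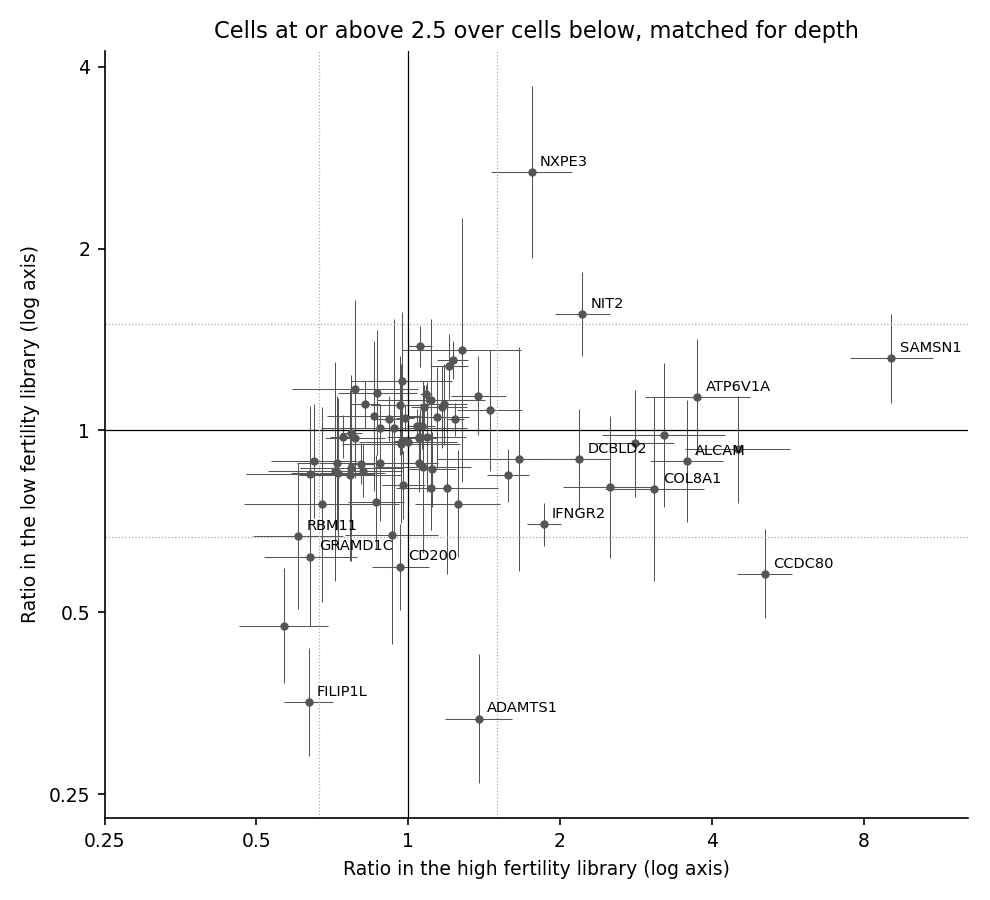
Ratio of each of 76 rows, cells at or above 2.5 over cells below at matched depth, in the high (x, log axis) and low fertility library (y, log axis), with 95% counting intervals; dotted lines mark 1.5-fold. NXPE3 and NIT2 lie above 1.5-fold in both, FILIP1L and GRAMD1C below, and SAMSN1 (9.08 and 1.32) and CCDC80 (5.09 and 0.579) lie far to the right only in the high fertility library.

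Most rows that marked the high side did so in 1 library. SAMSN1, an adaptor gene of blood cells and the single leukocyte gene with enough UMIs, had the highest ratio in the high fertility library. It stood at 3.77 CPM below and 25.9 CPM at or above the split there, a ratio of 9.08 (7.51 to 11.0), on 113 and 876 UMIs. The low fertility library had 14.2 and 14.9 CPM, a ratio of 1.32 (1.11 to 1.56). The ratio of these ratios was 6.90 (5.35 to 8.90). Of 583 cells with a SAMSN1 UMI in the high fertility library 86.4% (83.4% to 89.1%) were at or above 2.5, against 42.2% of cells without one at the same depths. Of 366 such cells in the low fertility library 71.3% (66.4% to 75.9%) were, against 67.3%. The library difference for SAMSN1 lay on the low side of the split, where the high over low fertility ratio was 0.235 (0.181 to 0.304), while on the high side it was 1.15 (1.02 to 1.29). In the low fertility library the SAMSN1 ratio passed 1.5-fold in cells of at most 15000 UMIs, at 1.79, and as a mean over cells, at 1.89.

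Of 8 leukocyte markers, SAMSN1, CD96 and CD80 are in the table. Their summed level was 4.04 CPM (3.35 to 4.83) below and 26.8 CPM (25.1 to 28.6) at or above the split in the high fertility library, and 14.4 CPM (12.4 to 16.7) and 15.7 CPM (14.4 to 17.2) in the low. The sum is mostly SAMSN1, with 113 of 121 UMIs below and 876 of 907 at or above the split in the high fertility library. In the low it was 176 of 179 and 495 of 524. CD96, a receptor of T and natural killer cells, had 5 UMIs below and 16 at or above the split in the high fertility library, and 3 and 18 in the low. CD80, a costimulatory ligand of antigen-presenting cells, had 3 and 15, and 0 and 11. These counts are not scaled to the UMIs of the sides. In all, the sides held 29944100 and 33825686 UMIs in the high fertility library, and 12397586 and 33276920 in the low. The endothelial marker JAM2 stood at 0.534 and 0.148 CPM (16 and 5 UMIs) in the high fertility library. In the low fertility library it stood at 0.161 and 0.0902 CPM (2 and 3 UMIs). The surface epithelium marker UPK1B stood at 0.735 and 0.207 CPM (22 and 7 UMIs), and at 0.645 and 0.451 CPM (8 and 15 UMIs). For JAM2 and UPK1B the intervals of the sides overlapped, except for UPK1B in the high fertility library. Which part such cells have in the ratios below was not tested.

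CCDC80, whose product is secreted into the matrix, stood at 10.8 CPM below and 60.2 CPM at or above the split in the high fertility library, a ratio of 5.09 (4.49 to 5.77). In the low fertility library it was lower on the high side, at 18.6 and 10.3 CPM, a ratio of 0.579 (0.489 to 0.686). The ratio of ratios was 8.79 (7.12 to 10.8). COL8A1, a chain of type VIII collagen, had 3.08 (2.46 to 3.85) and 0.800 (0.563 to 1.14). Its low fertility ratio was 0.398 in cells of at most 15000 UMIs and 0.546 as a mean over cells, which would count it lower. DCBLD2, a transmembrane receptor-like protein, had 2.18 (1.89 to 2.52) and 0.895 (0.740 to 1.08). ADAMTS1, the protease that cleaves versican around ovulation, had 1.38 (1.18 to 1.61) and 0.334 (0.261 to 0.426), and its high fertility ratio turned to 0.869 without cells with a UMI of SAMSN1 or CCDC80. Of the 5 genes of this list that were compared, with FILIP1L, 3 were counted higher and 1 lower in the high fertility library, and 0 higher and 3 lower in the low. Over all 76 rows the shares were 19.7% higher and 7.89% lower, and 2.63% and 7.89%.

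The ADAMTS1 values of the low fertility library rest on few cells, 113 with a UMI, where the high fertility library had 417. On the low side of the low fertility library its 144 UMIs came from 41 cells, and 1 cell held 35; without that cell the ratio was 0.440. Cell by cell, 51.8% (46.9% to 56.7%) of the cells with an ADAMTS1 UMI in the high fertility library were at or above 2.5, against 52.4% of cells without one at the same depths. The low fertility library had 63.7% (54.1% to 72.6%) against 72.6%. For CCDC80 the shares were 73.9% (70.8% to 76.9%) against 48.6% in the high fertility and 66.0% (60.9% to 70.9%) against 72.0% in the low fertility library.

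Within the high side the marking genes did not all keep together. In the high fertility library CCDC80 was 0.833 times (0.721 to 0.963) as high in cells with a SAMSN1 UMI as in the other high-side cells, and SAMSN1 was 1.11 times (0.928 to 1.33) as high where a CCDC80 UMI was present. The same values for low fertility were 1.89 (1.44 to 2.49) and 1.91 (1.51 to 2.42). On the low side of the low fertility library they were below 1, at 0.540 (0.315 to 0.924) and 0.422 (0.227 to 0.786). The low side of the high fertility library had 1.01 (0.499 to 2.04) and 1.31 (0.644 to 2.67). High-side cells with a CCDC80 UMI held more COL8A1 than the others, by 3.93 times (3.20 to 4.83) and 4.76 times (3.23 to 7.0). The same held on the low side, at 5.74 (3.65 to 9.02) and 4.84 (2.45 to 9.57), so this is not particular to the high side. ALCAM was higher in cells with a SAMSN1 UMI, at 1.86 (1.55 to 2.23) and 4.79 (3.65 to 6.28) on the high side. On the low side it was 5.12 (3.26 to 8.04) and 3.13 (1.97 to 4.97). NXPE3 was lower in high-side cells with SAMSN1, at 0.267 (0.156 to 0.457) and 0.293 (0.155 to 0.552). Low-side cells with SAMSN1 held 3 and 1 UMIs of NXPE3, at 0.711 (0.228 to 2.22) and 0.228 (0.0340 to 1.52). When every cell with a UMI of SAMSN1 or CCDC80 was left out, NXPE3 and NIT2 were again the rows counted higher in both libraries, with NXPE3 at 2.28 and 2.43 and NIT2 at 2.17 and 1.77. GRAMD1C then stood at 0.629 and 0.715, so that FILIP1L and ENSCHIG00000002425 were counted lower in both.

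Of the adhesion genes, ALCAM had the highest ratio in the high fertility library. ALCAM, an immunoglobulin-fold adhesion molecule, stood at 5.91 CPM below and 21.0 CPM at or above the split in the high fertility library (3.57, 3.02 to 4.21) and at 8.39 and 6.64 CPM in the low (0.889, 0.706 to 1.12). CD200, a surface ligand that restrains myeloid cells, had 0.964 (0.847 to 1.10) and 0.595 (0.505 to 0.701). Of the 5 adhesion genes compared 1 was counted higher in the high fertility and 1 lower in the low fertility library, beside 19.7% and 7.89% of all rows. LSAMP had 0.928 and 0.672, ROBO1 0.771 and 0.866 and CD47 1.25 and 0.757. In cells of at most 15000 UMIs the low fertility ratios of ALCAM and CD47 turned to 1.12 and 1.06, and LSAMP, at 0.513, would count as lower. The low fertility ratio of CD200 was 0.676 without the 1 cell with most of its UMIs, inside 1.5-fold. TIAM1, an exchange factor that activates Rac, had 2.51 (2.03 to 3.12) and 0.806 (0.616 to 1.06), and was the 1 of 4 signalling genes counted, beside 19.7% of all rows counted higher in the high fertility library. Without cells with a UMI of SAMSN1 or CCDC80 its low fertility ratio was 0.583, and as a mean over cells 1.15. NFKBIZ, a nuclear regulator of NF-kB, had 1.24 and 1.04, the kinase gene GSK3B 0.978 and 0.813 and the deubiquitinase gene USP16 0.805 and 0.881.

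IFNGR2, which encodes a subunit of the receptor for interferon gamma, was on opposite sides in the libraries. It stood at 31.6 CPM below and 56.1 CPM at or above the split in the high fertility library, a ratio of 1.86 (1.72 to 2.0). The low fertility library had 71.6 and 47.2 CPM, a ratio of 0.699 (0.644 to 0.760), which moved to 0.910 in cells of at most 15000 UMIs. ATP6V1A, the catalytic subunit of the vacuolar proton pump, had ratios of 3.74 (2.94 to 4.75) and 1.14 (0.911 to 1.42). TMEM50B, a membrane protein gene, had 2.81 (2.36 to 3.36) and 0.952 (0.777 to 1.17), but was counted higher in both libraries in cells of at most 15000 UMIs. ATP6V1A and TMEM50B belong to no list and were picked after their values were seen. NRIP1, a nuclear receptor corepressor, had 1.66 (1.14 to 2.41) and 0.897 (0.586 to 1.38) on 129 and 101 UMIs. In cells of at most 15000 UMIs its low fertility ratio turned to 1.445, and without cells with a UMI of SAMSN1 or CCDC80 the high fertility ratio was 1.37. With ADAMTS1 and ALCAM, NRIP1 forms the ovulatory list, of which 2 of 3 were counted higher in the high fertility and 1 lower in the low fertility library, beside 19.7% and 7.89% of all rows.

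None of the 4 mitochondrial genes compared reached 1.5-fold in either library, where 55 and 68 of all 76 rows did not. MRPL39, of the mitochondrial ribosome, had 1.04 and 1.02, TOMM70, an import receptor, 0.741 and 0.977 and TRMT10C, of mitochondrial RNase P, 0.813 and 0.858. COX17, which carries copper to cytochrome c oxidase, was higher on the high side of both libraries, at 48.5 against 58.4 CPM (1.23, 1.14 to 1.32) and 81.1 against 99.9 CPM (1.31, 1.22 to 1.40). SOD1, the copper and zinc superoxide dismutase, had 0.784 and 0.972. The 3 genes of protein synthesis and folding had ratios of 0.973 and 0.962 (the chaperonin subunit CCT8), 1.06 and 1.38 (CMSS1) and 0.869 and 1.16 (the methyltransferase gene N6AMT1). Of 4 genes listed under RNA processing RBM11 alone was counted, lower in the high fertility library, beside 7.89% of all rows. SON, a splicing cofactor, had 0.984 and 1.05 and PAXBP1 0.784 and 1.17 (1.55 in cells of at most 15000 UMIs). CRYZL1, listed with them though not an RNA processing gene, had 1.06 and 0.972. The anti-proliferative gene BTG3 had 1.07 and 1.02 and BBX, of the HMG-box family, 0.771 and 0.989. PROS1, which encodes protein S, had 1.07 and 1.09, and IFT57, of the transport machinery of cilia, had 1.05 and 0.977. GART, of purine synthesis, had too few UMIs to be compared.

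Within the modes the levels of other genes differed between classes of value. In cells of at least 5000 UMIs, 4 classes of value were compared with cells of value below 1. SAMSN1 in the high fertility library was 2.24 times (1.34 to 3.76) as high at 1 to 2, 6.62 times (4.31 to 10.2) at 2 to 3, 8.21 times (6.03 to 11.2) at 3 to 4 and 14.7 times (10.8 to 20) at 4 or more. In the low fertility library its order was different, with 2.55 times (1.81 to 3.59) at 1 to 2 and 3.81 times (2.54 to 5.71) at 2 to 3. It was 1.21 times (0.896 to 1.63) at 3 to 4 and 2.83 times (2.14 to 3.75) at 4 or more. The 293 cells of 1 to 2 in that library thus held 22.1 CPM of SAMSN1 and the 95 cells of 2 to 3 held 32.3 CPM. The 1056 cells of 3 to 4 held less, 7.80 CPM.

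CCDC80 was 4.82 times (4.06 to 5.72) as high at 3 to 4 and 8.57 times (7.25 to 10.1) at 4 or more in the high fertility library. At 2 to 3 it was already 5.12 times (4.06 to 6.45) as high there. The low fertility library had 1.45 (1.08 to 1.94) at 1 to 2 and 1.29 (0.821 to 2.02) at 2 to 3. Its upper classes were lower, with 0.599 (0.473 to 0.759) at 3 to 4 and 0.756 (0.600 to 0.954) at 4 or more. NXPE3 was highest at 3 to 4 in both libraries, at 2.02 and 3.43 times, and lower at 4 or more, at 1.27 (0.975 to 1.67) and 2.98 times (1.86 to 4.77). At 2 to 3 NXPE3 stood at 1.95 (1.28 to 2.99) in the high fertility library, close to its value at 3 to 4. The low fertility library had 2.57 (1.17 to 5.63) at 2 to 3. NIT2 had nearly the same ratio in both upper classes of the high fertility library, 2.41 and 2.40. FILIP1L was lowest at 3 to 4, at 0.556 (0.476 to 0.651) and 0.262 (0.197 to 0.349), and in the high fertility library stood at 0.941 (0.814 to 1.09) at 4 or more. COX17 was higher in the top class, at 1.39 (1.27 to 1.53) and 1.61 (1.46 to 1.76). ENSCHIG00000011680 stood at 0.984 and 1.10 at 3 to 4, and at 0.730 and 0.822 at 4 or more.

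**Figure D4:**
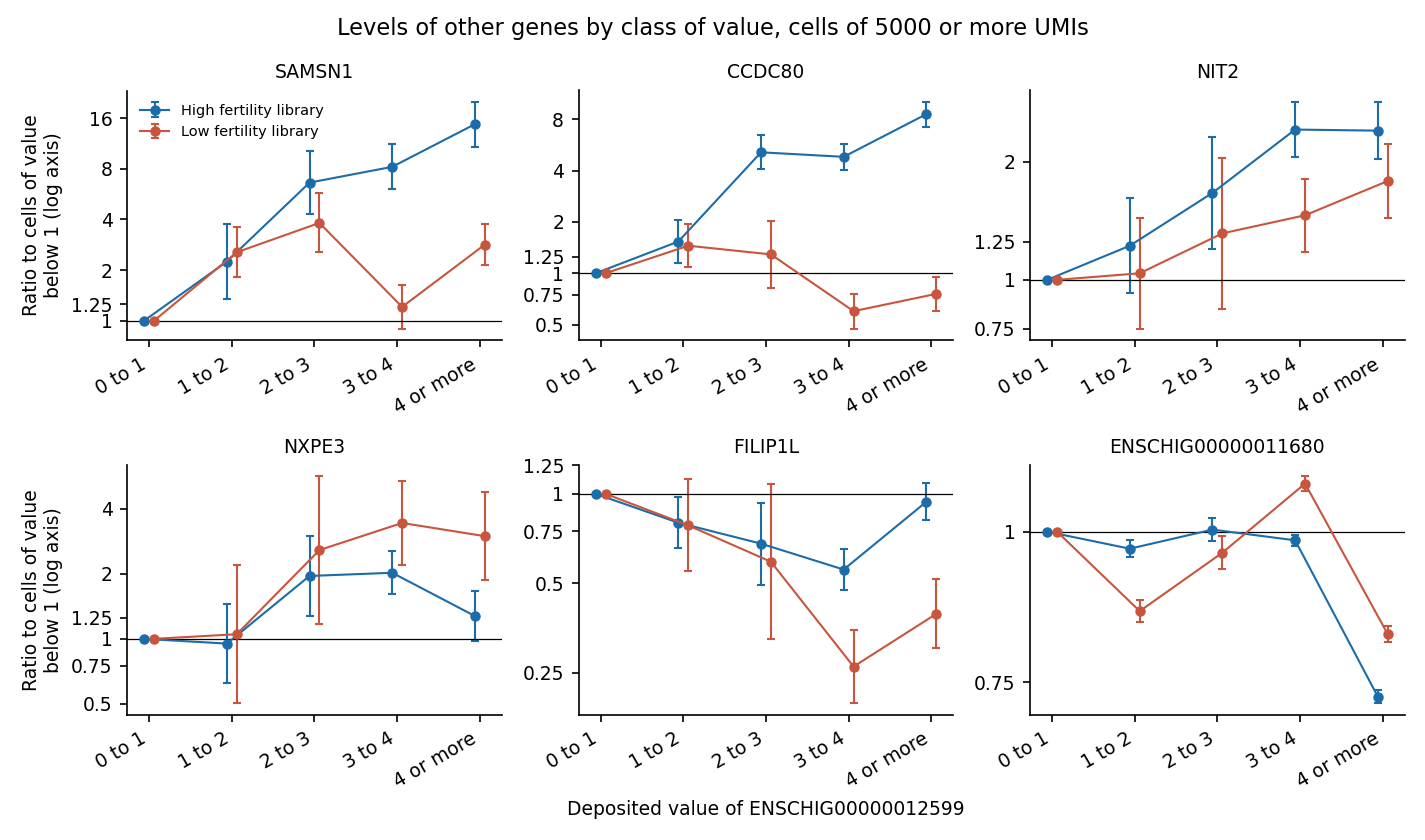
Ratio of 6 rows to cells of value below 1 (y, log axis, own scale in each panel) by class of the deposited value of ENSCHIG00000012599 (x), in cells of at least 5000 UMIs, with 95% counting intervals. In the high fertility library SAMSN1 and CCDC80 are highest at 4 or more (14.7 and 8.57 times), while in both libraries NXPE3 is highest and FILIP1L lowest at 3 to 4. In the high fertility library NXPE3 at 2 to 3 (1.95 times) is close to its value at 3 to 4 (2.02 times).

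A small set of cells lay far above the upper mode. Values of 5 or more were found in 131 cells (1.84%) of the high and 134 cells (4.01%) of the low fertility library. This bound was chosen after the values were seen. These cells were shallow, with medians of 2703 and 2658.5 UMIs, and the gene took 2.45% and 2.62% of their UMIs. Against cells of 2.5 to 5 at matched depth, IFNGR2 had ratios of 1.58 (1.19 to 2.09) and 1.73 (1.25 to 2.39), and SON of 1.30 and 1.32. ENSCHIG00000011680 stood at 0.674 (0.632 to 0.717) and 0.529 (0.494 to 0.566), and BBX at 0.735 (0.526 to 1.03) and 0.636 (0.445 to 0.910). SAMSN1 stood at 0.469 (0.300 to 0.733) and 0.535 (0.324 to 0.882), on 19 and 15 UMIs. These rows are examples picked after their values were seen, and other rows lay farther from 1. ALCAM had 2.17 (1.41 to 3.34) and 2.38 (1.32 to 4.29), and IFT57 0.555 (0.345 to 0.894) and 0.361 (0.192 to 0.679). CCDC80 had 2.76 (1.98 to 3.84) and 1.78 (0.818 to 3.86). Leaving these cells out gave the same counts in both libraries, 2 rows higher and 3 lower.

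Cell by cell, no abundant row followed ENSCHIG00000012599 closely. Spearman correlations of deposited values were computed for 17 rows of at least 50 CPM in both libraries, over 1935 and 1882 cells of at least 10000 UMIs, which share library and depth range. ENSCHIG00000022046 had 0.165 in the high fertility and 0.242 in the low fertility library, COX17 0.111 and 0.127, another row without a symbol 0.120 and 0.0726, BTG3 0.0726 and 0.0388 and MRPL39 0.0548 and 0.0353. These 5 are the most like it by the lower of both values, and all are weak. The most negative was ENSCHIG00000011680, at -0.308 and -0.235.

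The libraries were then compared with each other on each side of the split at matched depth. On the low side 4 of 76 rows (5.26%) were 1.5-fold or more higher and 14 (18.4%) lower in the high fertility library. On the high side 11 (14.5%) were higher and 5 (6.58%) lower, and over all cells 9 (11.8%) and 4 (5.26%). CCDC80 was 0.580 (0.486 to 0.692) on the low and 6.0 (5.35 to 6.73) on the high side, COL8A1 1.03 (0.733 to 1.44) and 5.07 (4.14 to 6.21), ADAMTS1 0.906 and 4.57 and ALCAM 0.739 and 2.84. The excess of CCDC80, COL8A1 and ALCAM in the high fertility library thus lay in cells at or above 2.5. The low-side ratio of ADAMTS1 rests on few cells of the low fertility library, with many of its UMIs in a single cell. Whether its excess lay only at or above 2.5 is therefore not settled. IFNGR2 was 0.476 (0.431 to 0.525) on the low and 1.06 (0.989 to 1.14) on the high side, and ATP6V1A 0.347 (0.253 to 0.475) and 1.06 (0.905 to 1.24).

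COX17 and SOD1 differed between the libraries on both sides alike. COX17 was 0.582 (0.534 to 0.634) on the low and 0.561 (0.530 to 0.594) on the high side, and SOD1 0.577 (0.497 to 0.670) and 0.496 (0.442 to 0.557). FILIP1L was higher in the high fertility library on either side, at 1.74 (1.47 to 2.05) and 3.85 (3.26 to 4.54). GRAMD1C had 0.890 (0.690 to 1.15) and 0.904 (0.711 to 1.15), intervals that hold 1 on both sides.

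**Figure D5:**
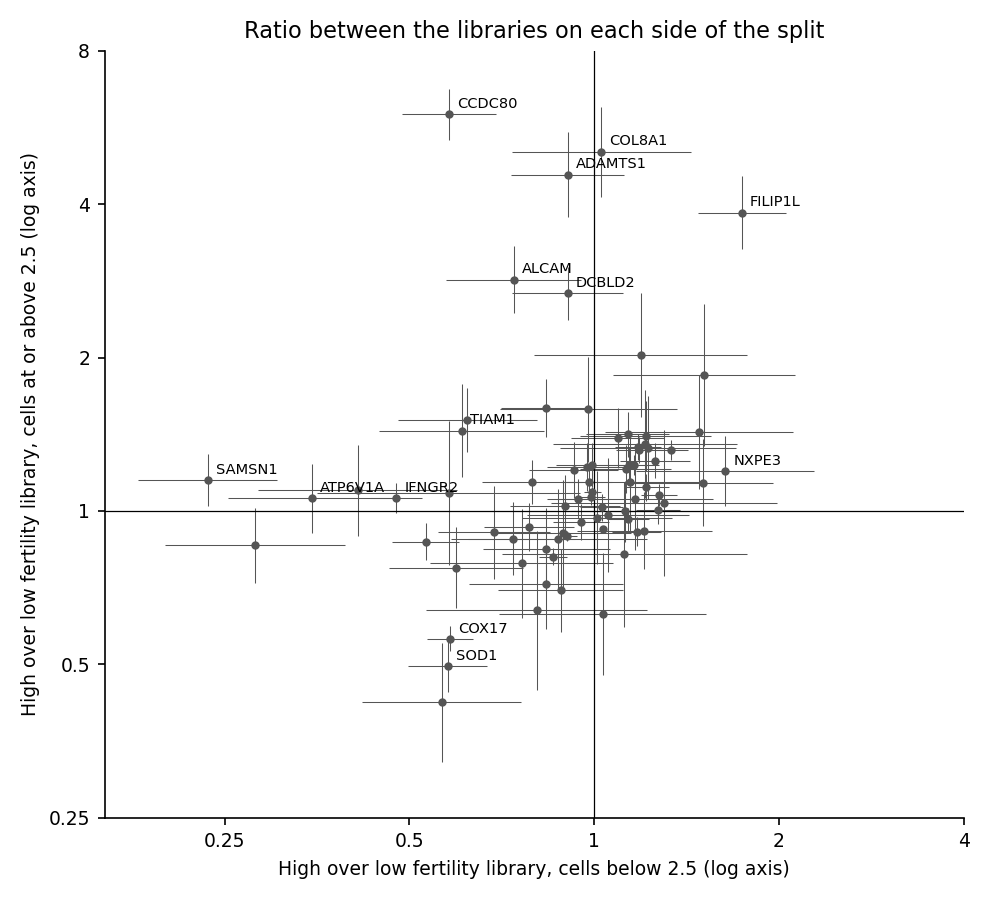
Ratio of each of 76 rows between the libraries, high over low fertility at matched depth, in cells below 2.5 (x, log axis) and at or above 2.5 (y, log axis), with 95% counting intervals. CCDC80 (0.580 and 6.0) and SAMSN1 (0.235 and 1.15) differ between the sides, while COX17 (0.582 and 0.561) and SOD1 (0.577 and 0.496) do not lie far apart.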

How the data were processed

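The authors deposited 1 table of genes by cells on a natural log scale. Per the labels' protocols droplet libraries were prepared with a 3' kit of 10x Genomics. Cell Ranger 2.2.0 is named, per the submitters' processing notes. Genome build, annotation and cell filter were not given in the sources used here. Cells were assigned to libraries by the prefix of their column names. UMI counts were worked back from the deposited natural log values, on which a gene's UMIs are divided by the cell's total, multiplied by 10000 and raised by 1 before the log. The smallest value gave a whole total in 10444 of 10451 cells, and each cell was given the smallest total at which all its values were whole. With these totals 177610 of 177610 values above 0 were whole UMIs within 0.0001. The last row, which is incomplete, was left out, and RefSeq ARS1.2 holds 110 of the 117 symbols.

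Ratios were Mantel-Haenszel rate ratios over 8 depth bins (bounds at 2500, 5000, 7500, 10000, 15000, 20000 and 30000 UMIs), with numpy 2.4.6 and scipy 1.17.1. The method was tested on simulated data. The simulated counts were drawn independently for each cell, so they cannot show how the intervals behave when UMIs cluster in cells. Intervals of CPM are exact Poisson and of shares exact Clopper-Pearson intervals. They assume independent UMIs, and UMIs of a gene cluster in cells, so they are too narrow. No doublet caller was run, and no cells were clustered.

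Genes were named by a rule: up to 12 with a symbol and 2 without each way that were 1.5-fold apart in both libraries with at least 100 UMIs, members of gene lists, and the 5 rows most like the gene. The members and lists were chosen with earlier results of these data known. Alternatives for the split value, depth matching, cells kept and the counting rule are given in the closing section.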

Additional observations from a re-analysis of the deposited data

Results flagged for a closer look

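For 7 of the 76 rows the interval of the ratio, cells at or above 2.5 over cells below, lay above 1 in one library and below 1 in the other. With 1 library per group this difference was not tested, and the intervals cover counting error only. CCDC80 had 5.09 in the high fertility and 0.579 in the low fertility library. IFNGR2 had 1.86 and 0.699, and ADAMTS1 1.38 and 0.334. The high fertility ratio of ADAMTS1 was 0.869 without cells with a UMI of SAMSN1 or CCDC80, on the same side as the low, and the low fertility ratio of CD47 was 1.06 in cells of at most 15000 UMIs. ENSCHIG00000012911 had 1.58 and 0.843, and CD47, a surface signal that restrains phagocytosis, 1.25 and 0.757. CGGBP1, which encodes a CGG repeat binding protein, had 1.11 and 0.862, with an interval that starts close to 1 in the first and ends close to 1 in the second. CLDND1, a claudin domain gene, was the 1 row in the other direction, with 0.823 and 1.10. CGGBP1 and CLDND1 belong to no list and are named for this pattern alone.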

How the results depend on the processing

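Of 62 recomputed counts and shares, 40 stayed near the reported value and 22 did not; the cause was not tested. The count of rows lower on the high side of both libraries went from 3 to 1 with the split at 2.0 or at 3.0. In cells of at most 15000 UMIs the count higher in both went from 2 to 5 (with SAMSN1, TMEM50B and 1 row without a symbol). With at least 20 UMIs in each library the counts were 5 higher and 6 lower, and at 2-fold 0 and 0. Rows 1.5-fold apart between the libraries numbered 18 on the low side and 16 on the high side; these became 35 and 32 with at least 20 UMIs, 5 and 9 at 2-fold, and on the high side 8 with at least 300 UMIs.

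The share below 2.5 (54.5% for high and 32.9% for low fertility) was 51.7% and 30.1% with the split at 2.0, 57.3% and 35.8% at 3.0, 51.8% and 31.1% in cells of at least 5000 UMIs, 57.7% and 37.1% in cells of at most 15000 UMIs, and 51.9% and 37.0% standardised for depth. It was greater in the high fertility library in each of these settings. For 40 named genes and 12 settings 956 ratios were recomputed, of which 874 stayed within their interval, 82 left it, and 0 of those that were 1.5-fold apart changed side. ADAMTS1 in the high fertility library, at 1.38, was 1.09 in cells of at most 15000 UMIs and 0.869 without cells with SAMSN1 or CCDC80. Settings without cells at or above 5, without cells with SAMSN1 or CCDC80 and without the cell with most UMIs were chosen after seeing the data. No paired analysis was possible because a single library was made per group, and for the same reason no replicate could be left out.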
